A study of Rattus norvegicus with 30 samples.

Results

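The collagen chains described here are 10 genes: the fibrillar chains Col1a1, Col1a2, Col3a1, Col5a1 and Col5a2, the basement membrane chains Col4a1 and Col4a2, and Col8a1, Col12a1 and Col15a1. They were chosen as every probe set of a heart microarray table whose annotated gene symbol is 1 of these 10 names, which gave 18 probe sets of 31099 and 10 genes of 14218. Of the 18 probe sets, 17 were bright enough to be tested, and the 1 left out was a dim probe set for Col12a1. A gene with more than 1 probe set is represented by its brightest, judged by mean log2 value. The brightest probe sets were 1388116_at for Col1a1, 1387854_at for Col1a2, 1370959_at for Col3a1, 1376099_at for Col5a1 and 1370895_at for Col5a2. For the remaining chains they were 1373245_at for Col4a1, 1388494_at for Col4a2, 1393891_at for Col8a1, 1370927_at for Col12a1 and 1388939_at for Col15a1.

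Collagens are secreted as triple helices of alpha chains, and the chains of 1 molecule are often encoded by different genes. Types I, III and V assemble into the fibrils of the interstitial matrix, which fibroblasts make in the heart and which thicken in scars. Type IV forms the sheet-like network of basement membranes around capillaries and cardiomyocytes, and its main isoform combines chains from Col4a1 and Col4a2.

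RNA came from hearts of male Crl:WI(Han) rats, an outbred Wistar strain, given a single dose of isoproterenol hydrochloride, which activates beta-adrenergic receptors, or vehicle. The vehicle groups held 3 arrays each at 1, 3, 24 and 72 h, and the isoproterenol groups held 5, 4, 4 and 5 arrays in that order. The dose is labelled 0.5 with the unit mg/kg/ml but given without body weight in the series text, which also names an earlier last time than the labelled 72 h. The arrays are titled biological replicates, but no label says that each came from its own animal, so the p-values describe the spread among these arrays, which may be technical. The samples are bulk tissue, in which fewer cells of a type and less RNA per cell cannot be told apart.

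Levels are normalized log2(intensity + 16) values, a scale that understates the change of dim probe sets. All 8 tested cardiomyocyte markers were bright, with a summed intensity between 57175 and 71039 on every array, so the samples carried the labelled tissue's markers. The array numbers of the 2 treatments formed separate blocks, 4 to 21 for vehicle and 33 to 62 for isoproterenol, and the effect of that order cannot be told apart from treatment. Within each treatment the numbers also rose from 1 h to 72 h, so the order cannot be told apart from time either. Raw array medians lay between 21.2 and 70.3. Isoproterenol replicate 1 at 72 h stood apart: its mean correlation with its own group was 0.948 and with the vehicle arrays of that time 0.962. Its 5 myofibroblast markers summed to 1346, against 11100 to 15291 in the other isoproterenol arrays and 401 to 841 in the vehicle arrays of 72 h. Isoproterenol replicate 3 at 24 h was also nearer to vehicle (0.962) than to its own group (0.957). Each member's change at 72 h and at 24 h is given with all arrays and without the one that stood apart.

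At 72 h all 5 fibrillar chains rose, by 2.13-fold to 5.49-fold, and neither type IV chain passed the test. Col8a1 and Col12a1 rose at 24 h and at 72 h, and Col15a1 fell at 3 h and at 24 h. Counting genes, 0 of 10 passed at 1 h in either direction, where 1.83% of all 24292 tested probe sets were higher and 0.815% lower. At 3 h, 0 were higher and 1 was lower, beside 6.1% and 5.28% of all probe sets. At 24 h, 4 were higher and 1 was lower, beside 7.34% and 5.71%. At 72 h, 7 were higher and 0 lower, beside 9.37% and 8.46%. Without the arrays that stood apart, the counts were 4 and 1 at 24 h and 8 and 0 at 72 h, where Col4a1 was the gene added. The median change of the 10 genes was -0.13, -0.20, 0.68 and 1.76 at 1, 3, 24 and 72 h, against -0.03, -0.05, -0.02 and -0.04 for all probe sets tested. By overlap of the arrays, at 1 h 0 genes lay wholly above and 2 wholly below vehicle (6.49% and 7.67% of all probe sets), and at 3 h 2 and 1 (8.5% and 9%). At 24 h these counts were 6 and 1 (10.6% and 11.2%), and at 72 h 5 and 0 (8.63% and 8.15%). Tests were limma moderated tests with adjustment over all probe sets, and a gene was called below an adjusted p of 0.05.

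**Figure D1:**
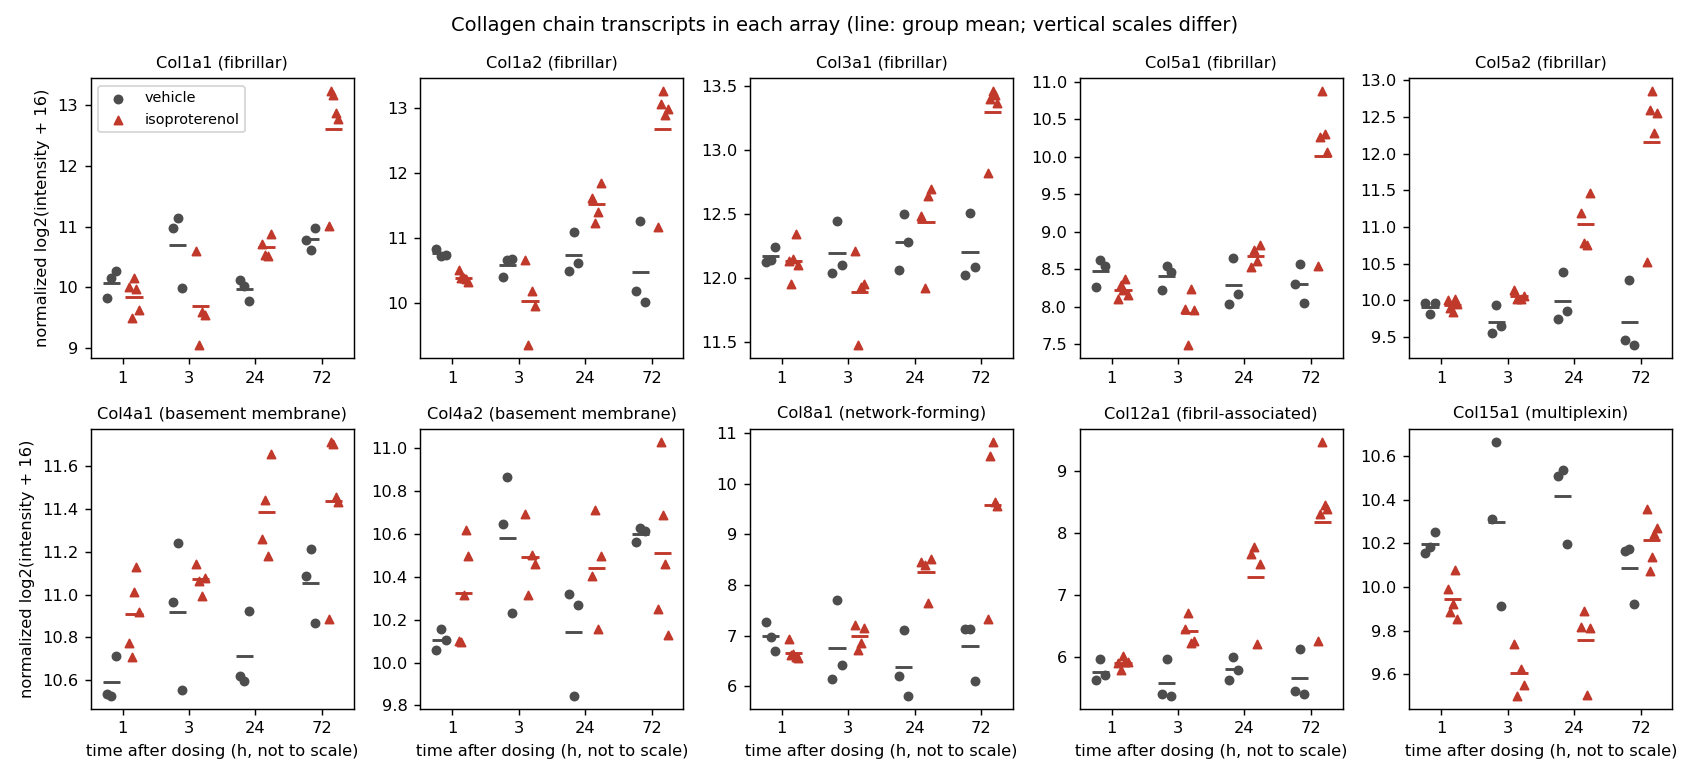
Normalized log2(intensity + 16) of each collagen chain in each array, with vehicle arrays as grey circles, isoproterenol arrays as red triangles and a line at each group mean, against time after dosing in hours. At 72 h the Col1a1 values of 4 isoproterenol arrays lay from 12.77 to 13.23 and replicate 1 lay at 11.01, just above the highest vehicle array at 10.98.

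Type I collagen, the most abundant fibrillar collagen of the heart, joins chains from Col1a1 and Col1a2. Col1a1 read 10.77, 10.61 and 10.98 in the vehicle arrays of 72 h and 11.01, 13.23, 13.16, 12.87 and 12.77 in the isoproterenol arrays, in order of replicate number. Replicate 1 lay just above the vehicle arrays and the other 4 lay far above them, so the groups did not overlap. Col1a1 rose by 1.82 ± 0.33 on the log2 scale (SE, 3.54-fold, limma adjusted p = 0.000272, n = 5 and 3), and by 2.23 (4.69-fold) without replicate 1. Col1a2 read 10.19, 11.26 and 10.01 in vehicle and 11.17, 13.06, 13.26, 12.90 and 12.99 after isoproterenol. Here the groups overlapped, because replicate 1 lay below the highest vehicle array. Col1a2 rose by 2.19 ± 0.31 (4.56-fold, limma adjusted p = 1.4e-05), and by 2.57 (5.95-fold) without replicate 1.

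Type III collagen is a homotrimer of Col3a1 chains that shares fibrils with type I in distensible tissues. Col3a1 read 12.02, 12.51 and 12.08 in vehicle and 12.82, 13.40, 13.46, 13.43 and 13.37 after isoproterenol at 72 h, with no overlap. It rose by 1.09 ± 0.17 (2.13-fold, limma adjusted p = 3.73e-05), which was the smallest rise among the fibrillar chains. Without replicate 1 the value was 1.22 (2.32-fold).

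Type V collagen is a minor component that starts fibril assembly and limits fibril width, and its chains come from Col5a1 and Col5a2. Col5a1 read 8.30, 8.57 and 8.05 in vehicle and 8.54, 10.26, 10.87, 10.30 and 10.07 after isoproterenol at 72 h. Only replicate 1 lay within the vehicle range. Col5a1 rose by 1.70 ± 0.28 (3.25-fold, limma adjusted p = 7.7e-05), and by 2.07 (4.20-fold) without replicate 1. Col5a2 read 9.46, 10.28 and 9.38 in vehicle and 10.53, 12.60, 12.85, 12.29 and 12.56 after isoproterenol, and the groups did not overlap. Its rise of 2.46 ± 0.30 (5.49-fold, limma adjusted p = 2.61e-06) became 2.87 (7.33-fold) without replicate 1. Over the 23 alternative settings tried for 72 h, the rise of each of the 5 fibrillar chains passed in all 23.

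Among the fibrillar chains at 24 h, 1 of 5 passed. Col5a2 read 9.75, 10.38 and 9.86 in vehicle and 11.19, 10.78, 10.75 and 11.47 after isoproterenol, with no overlap. It rose by 1.05 ± 0.31 (2.07-fold, limma adjusted p = 0.0217, n = 4 and 3). That call ended in 4 of 7 fits that left out 1 array of 24 h: without isoproterenol replicate 1 (1.01, limma adjusted p = 0.0548), isoproterenol replicate 4 (0.91, 0.0830), vehicle replicate 1 (0.93, 0.0975) and vehicle replicate 3 (0.98, 0.0876). Without isoproterenol replicate 3, the array nearer to vehicle, it was 1.15 (limma adjusted p = 0.0135). Col1a1 and Col1a2 lay above every vehicle array in all 4 isoproterenol arrays, with differences of 0.69 ± 0.35 (limma adjusted p = 0.209) and 0.79 ± 0.32 (0.110). Col5a1 (0.39 ± 0.29) and Col3a1 (0.15 ± 0.18) overlapped with vehicle. Without isoproterenol replicate 3 these 4 differences were 0.74, 0.83, 0.42 and 0.08 in that order, and none passed. Of all probe sets, 10.6% had isoproterenol arrays wholly above vehicle at 24 h, as had 3 of the 5 fibrillar genes.

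At 1 h and 3 h no fibrillar chain passed. Col1a1 read 10.97, 11.15 and 9.99 in vehicle at 3 h and 10.59, 9.04, 9.60 and 9.55 after isoproterenol. Isoproterenol replicate 1 lay above vehicle replicate 3, so the groups overlapped. The difference was -1.01 ± 0.35 (limma adjusted p = 0.0556, n = 4 and 3). It passed without isoproterenol replicate 1 (-1.30, limma adjusted p = 0.0114) and without vehicle replicate 3 (-1.36, 0.0147). The other differences at 3 h were -0.54 ± 0.32 for Col1a2, -0.49 ± 0.29 for Col5a1, -0.30 ± 0.18 for Col3a1 and 0.35 ± 0.31 for Col5a2. At 1 h the 5 differences lay between -0.37 (Col1a2) and 0.03 (Col5a2).

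The type IV genes Col4a1 and Col4a2 are divergent neighbours. Their RefSeq start sites (rat build GRCr8) lie 77 bases apart on opposite strands of chromosome 16, so that the windows of 300 bases around them, from 250 before to 50 after each start, share 176 bases. The shared stretch is shown because it holds the start sites of both members of the pair whose changes are compared next. Only the part between the start sites precedes both genes, and the rest lies after the start of Col4a1 or of Col4a2. In the Col4a1 window, chr16:84885347-84885646 on the plus strand, capitals mark the stretch that also lies in the Col4a2 window.
Col4a1: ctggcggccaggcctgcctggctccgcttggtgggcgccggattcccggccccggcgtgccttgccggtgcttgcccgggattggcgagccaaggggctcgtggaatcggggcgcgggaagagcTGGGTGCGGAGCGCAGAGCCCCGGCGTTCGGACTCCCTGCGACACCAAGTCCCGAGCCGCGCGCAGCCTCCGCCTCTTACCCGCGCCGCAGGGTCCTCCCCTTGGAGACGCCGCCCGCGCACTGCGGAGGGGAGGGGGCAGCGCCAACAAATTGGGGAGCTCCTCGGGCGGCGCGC
The Col4a1 window held 2 matches to the GC box letters GGGCGG and 2 to the CCAAT box letters CCAAT, and the Col4a2 window held 2 and 1, on either strand. All the Col4a2 matches to these letters lie in the shared stretch, so they are sites also counted for Col4a1. Of all 33469 promoter windows, 33.1% held GGGCGG and 37.5% held CCAAT.

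Col4a1 read 10.62, 10.60 and 10.92 in vehicle at 24 h and 11.26, 11.44, 11.18 and 11.66 after isoproterenol. Every isoproterenol array lay above every vehicle array. Col4a1 rose by 0.67 ± 0.16 (1.59-fold, limma adjusted p = 0.00598, n = 4 and 3), and by 0.74 without isoproterenol replicate 3. At 72 h it read 11.08, 11.21 and 10.87 in vehicle and 10.89, 11.71, 11.70, 11.45 and 11.43 after isoproterenol, with replicate 1 inside the vehicle range. The difference of 0.38 ± 0.16 (95% confidence interval 0.06 to 0.70, limma adjusted p = 0.0897) did not pass. It passed in 3 of 23 alternatives: without replicate 1 (0.52, 1.44-fold, limma adjusted p = 0.00602), with array weights (0.44, 0.0104) and with cyclic loess (0.54, 0.0339). The second Col4a1 probe set gave 0.41 ± 0.17 at 24 h (limma adjusted p = 0.124) and 0.14 ± 0.17 at 72 h, neither of which passed.

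Col4a2 did not pass at any time. It read 10.32, 9.84 and 10.27 in vehicle and 10.40, 10.71, 10.15 and 10.50 after isoproterenol at 24 h, a difference of 0.30 ± 0.18 (limma adjusted p = 0.308), or 0.39 without isoproterenol replicate 3 (0.149). At 72 h it read 10.56, 10.63 and 10.61 in vehicle and 10.25, 11.03, 10.69, 10.46 and 10.13 after isoproterenol. The isoproterenol values lay on both sides of the narrow vehicle range, and the difference was -0.09 ± 0.17 (95% confidence interval -0.44 to 0.26). Without replicate 1 it was -0.02. At 1 h the differences were 0.32 ± 0.16 for Col4a1 and 0.22 ± 0.17 for Col4a2, and at 3 h they were 0.15 ± 0.16 and -0.09 ± 0.18.

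**Figure D2:**
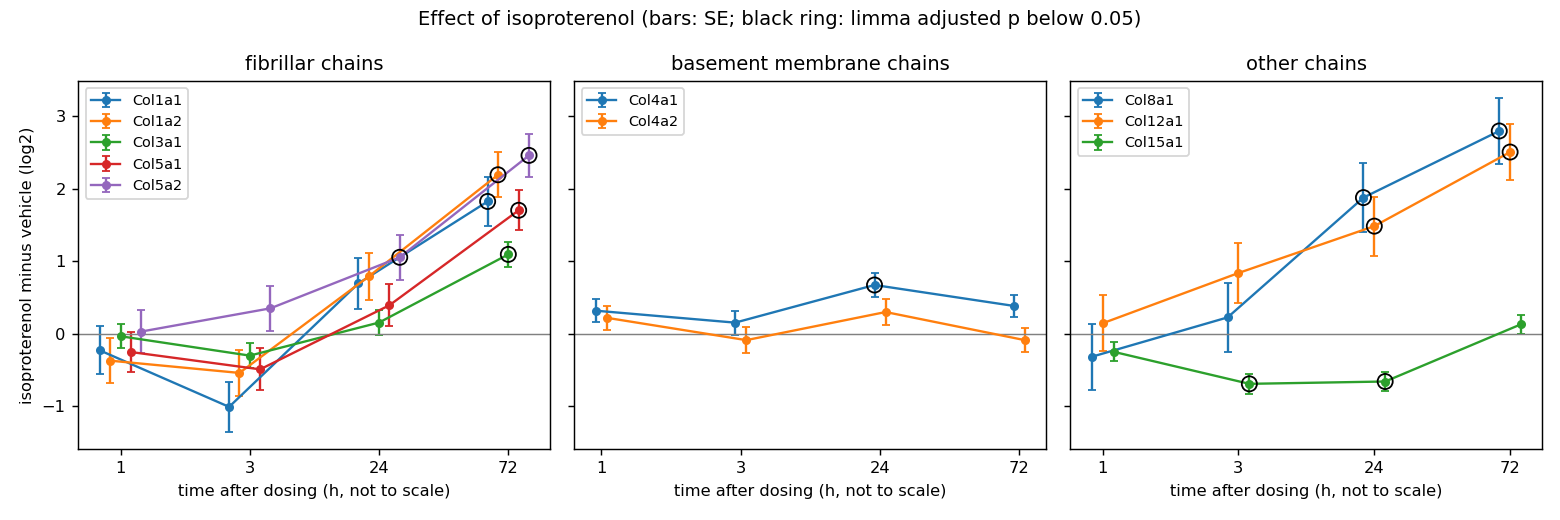
Isoproterenol minus vehicle on the log2 scale for each chain, against time after dosing in hours, with standard errors as bars and a black ring where limma's adjusted p was below 0.05. The fibrillar chains lay between 1.09 and 2.46 at 72 h, where Col4a1 and Col4a2 lay at 0.38 and -0.09.

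Fibrillar and basement membrane chains were compared array by array as the mean change of the 5 fibrillar genes minus the mean change of Col4a1 and Col4a2, each taken from the vehicle mean of the same time. This difference is a description without a test. At 72 h it was 0.78, 1.67, 2.05, 1.93 and 2.10 in the isoproterenol arrays and -0.14, 0.25 and -0.11 in the vehicle arrays. Every isoproterenol array lay above every vehicle array, replicate 1 included. The mean was 1.71 ± 0.55 (SD, n = 5), made of a fibrillar change of 1.85 ± 0.76 and a type IV change of 0.15 ± 0.32, and it was 1.94 without replicate 1. At 24 h the difference was 0.25, -0.26, 0.29 and 0.24 after isoproterenol and -0.20, 0.48 and -0.28 in vehicle, so the groups overlapped. The mean was 0.13, from a fibrillar change of 0.62 ± 0.21 and a type IV change of 0.48 ± 0.20 (SD, n = 4), and it was 0.08 without isoproterenol replicate 3.

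Before 24 h the difference had the opposite sign. At 1 h it was -0.22, -0.33, -0.45, -0.59 and -0.61 after isoproterenol and between -0.03 and 0.02 in vehicle. All 5 isoproterenol arrays lay lower, with a fibrillar change of -0.17 ± 0.09 and a type IV change of 0.27 ± 0.20 (SD, n = 5). At 3 h it was -0.17, -0.79, -0.32 and -0.44 after isoproterenol and -0.14, -0.08 and 0.21 in vehicle. Again every isoproterenol array lay lower, the nearest arrays being -0.17 and -0.14. The fibrillar change was -0.40 ± 0.35 and the type IV change 0.03 ± 0.10 (SD, n = 4).

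**Figure D3:**
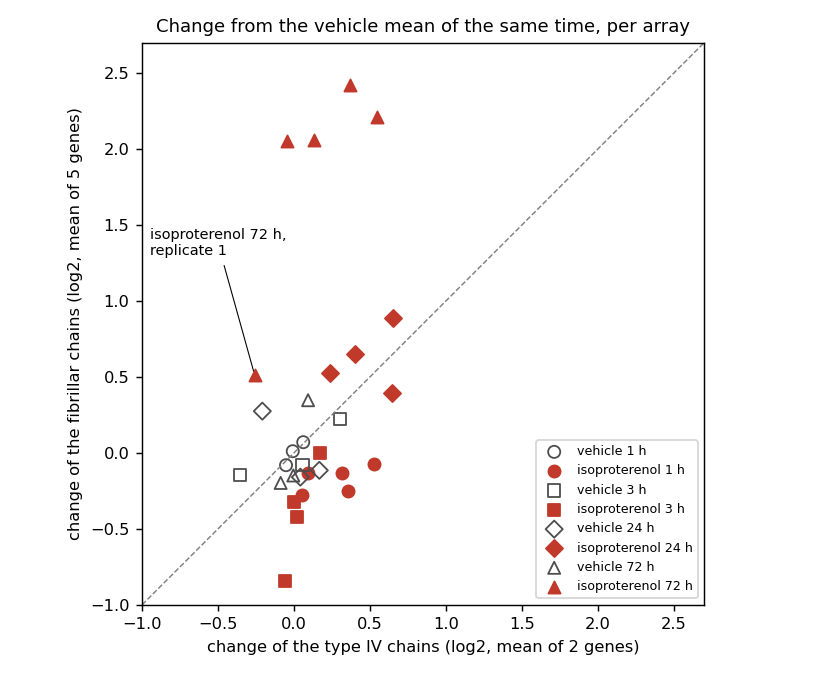
Change of the fibrillar chains against change of the type IV chains in each array, both as log2 differences from the vehicle mean of the same time, with open symbols for vehicle, filled symbols for isoproterenol, 1 shape per time and a dashed line of equal change. The 72 h isoproterenol arrays lay above the line, with fibrillar changes from 0.52 in replicate 1 to 2.42 in replicate 3.

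Col8a1 encodes a short chain of the network-forming type VIII collagen, made by vascular and mesenchymal cells. At 24 h it read 6.20, 7.11 and 5.80 in vehicle and 8.45, 8.39, 7.65 and 8.52 after isoproterenol. The groups did not overlap, and isoproterenol replicate 3 was the lowest of its group. Col8a1 rose by 1.87 ± 0.48 (3.67-fold, limma adjusted p = 0.00845, n = 4 and 3), which became 2.08 without isoproterenol replicate 3, while leaving out vehicle replicate 3 ended the call (1.59, limma adjusted p = 0.0669). At 72 h it read 7.13, 7.12 and 6.10 in vehicle and 7.33, 10.54, 10.83, 9.63 and 9.56 after isoproterenol. It rose by 2.79 ± 0.46 (6.93-fold, limma adjusted p = 8.2e-05), the largest change among the 10 genes at 72 h on this scale, and by 3.36 (10.2-fold) without replicate 1. Its 1 h and 3 h differences were -0.32 ± 0.46 and 0.22 ± 0.48.

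Col12a1 encodes type XII collagen, which sits on the surface of fibrils. It was dim in vehicle, between 5.38 and 6.14 over the 12 vehicle arrays, where the filter on dim probe sets lay at 5.29. At 3 h it read 5.40, 5.98 and 5.38 in vehicle and 6.47, 6.72, 6.24 and 6.27 after isoproterenol, with no overlap and a difference of 0.84 ± 0.41 that did not pass (limma adjusted p = 0.198). At 24 h it read 5.63, 6.01 and 5.79 in vehicle and 7.67, 7.78, 6.22 and 7.50 after isoproterenol. Replicate 3 was again the lowest isoproterenol array. Col12a1 rose by 1.48 ± 0.41 (2.79-fold, limma adjusted p = 0.0139) and by 1.84 without replicate 3. The call at 24 h ended without isoproterenol replicate 2 (1.31, limma adjusted p = 0.0648), vehicle replicate 1 (1.39, 0.0570) or vehicle replicate 3 (1.47, 0.0502). It also ended with the mean over the tested probe sets (0.90, limma adjusted p = 0.0577) and with the dimmer one (0.31, 0.62). At 72 h Col12a1 read 5.46, 6.14 and 5.42 in vehicle and 6.26, 8.30, 9.47, 8.46 and 8.39 after isoproterenol. It rose by 2.50 ± 0.39 (5.67-fold, limma adjusted p = 4.46e-05), and by 2.97 (7.86-fold) without replicate 1.

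Col15a1 encodes a multiplexin that links basement membranes to the neighbouring fibrils. It fell early while the fibrillar chains had not passed in either direction. At 3 h it read 10.31, 10.67 and 9.91 in vehicle and 9.74, 9.50, 9.62 and 9.55 after isoproterenol, with every isoproterenol array below every vehicle array. The difference was -0.69 ± 0.14 (1.61-fold lower, limma adjusted p = 0.000663, n = 4 and 3). At 24 h it read 10.51, 10.54 and 10.20 in vehicle and 9.82, 9.89, 9.50 and 9.81 after isoproterenol, again with no overlap and a difference of -0.66 ± 0.14 (1.58-fold lower, limma adjusted p = 0.00147). Without isoproterenol replicate 3 the 24 h difference was -0.57 (limma adjusted p = 0.00345). Both falls kept their sign but not their call when arrays were centred on their medians (-0.50 at 3 h and -0.57 at 24 h) or left without normalization (-0.71 and -0.07). At 72 h Col15a1 did not pass (0.13 ± 0.13, or 0.09 without replicate 1), and the groups overlapped. Vascular markers were lower at the same early time: at 3 h the 6 mural markers summed to 2211 to 2873 after isoproterenol against 3296 to 3314 in vehicle, and 3 of 6 (Rgs5, Pdgfrb and Kcnj8) were called lower, beside 5.28% of all probe sets. That count was 2 with median centring, 4 with trimmed mean scaling and 0 without normalization. The Pdgfrb call also ended with its dimmest probe set and with the mean over its probe sets. The Kcnj8 call ended on leaving out isoproterenol replicate 2, vehicle replicate 1 or vehicle replicate 2 of 3 h. Of 7 endothelial markers 2 were called lower at 3 h, Tie1 (-1.28 ± 0.21) and Emcn (-1.23 ± 0.18), while the sums overlapped at 3702 to 4815 against 4426 to 5224. Their part in the fall of Col15a1 was not tested.

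The change of the isoproterenol effect between times was tested on its own, as the difference of 2 isoproterenol minus vehicle contrasts. From 1 h to 3 h the effect changed in 0 of 10 genes, where 0.391% of all probe sets increased and 0.189% decreased. From 3 h to 72 h it increased in 7 of 10 genes and decreased in 0, beside 5.52% and 3.7% of all probe sets. Among fibrillar chains all 5 passed, by 2.83 ± 0.48 for Col1a1, 2.73 ± 0.45 for Col1a2, 2.19 ± 0.40 for Col5a1, 2.11 ± 0.43 for Col5a2 and 1.40 ± 0.24 for Col3a1 (limma adjusted p from 0.000129 to 0.00141). Both type IV genes missed, at 0.23 ± 0.23 for Col4a1 and -0.00051 ± 0.25 for Col4a2. Col8a1 (2.57 ± 0.66, limma adjusted p = 0.0113) and Col15a1 (0.82 ± 0.19, 0.00431) also passed, Col8a1 not without vehicle replicate 2 of 3 h (2.09, 0.0526). The Col15a1 call ended with its dimmer probe set (0.47, limma adjusted p = 0.208), with median centring (0.77, 0.149) and without normalization (1.33, 0.126). Col12a1 missed at 1.67 ± 0.56 (limma adjusted p = 0.0581), and passed without isoproterenol replicate 1 of 72 h (2.14, limma adjusted p = 0.0003).

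From 24 h to 72 h the effect increased in 2 of 10 genes, Col3a1 (0.94 ± 0.24, limma adjusted p = 0.0344) and Col15a1 (0.79 ± 0.19, 0.0209), and decreased in 0, beside 1.32% and 0.795% of all probe sets. The Col3a1 call ended in 9 of the 15 fits that left out 1 array, with values from 0.78 to 1.08 over the 15, and the Col15a1 call in 3 of 15, from 0.70 to 0.90. The Col15a1 increase was 0.11 with its dimmer probe set (limma adjusted p = 0.878) and 0.45 with the mean over its probe sets (0.253), and it did not pass with median centring (0.84, 0.241) or without normalization (0.69). Without isoproterenol replicate 1 of 72 h, Col3a1 stood at 1.06 and 5 other genes passed as well: Col5a2 (1.82), Col1a2 (1.78), Col5a1 (1.68), Col1a1 (1.54) and Col12a1 (1.50). From 3 h to 24 h the effect increased in 1 gene, Col1a1 (1.70 ± 0.49, limma adjusted p = 0.0321), and decreased in 0, beside 3.59% and 3.19% of all probe sets. That call ended in 9 of 14 fits that left out 1 array, where values lay between 1.48 and 2.05.

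Vehicle levels of the members did not pass a moderated F test among the 4 times, which 0.0988% of all probe sets passed. The lowest unadjusted p was that of Col4a2 (0.016, limma adjusted p = 0.34). Within the isoproterenol groups, 8 of 10 genes were higher at 72 h than at 3 h and 0 lower, beside 14.2% and 11.7% of all probe sets. The exceptions were Col4a1 (0.37 ± 0.14, limma adjusted p = 0.0584), which passed at 0.51 without replicate 1 of 72 h, and Col4a2 (0.02 ± 0.16).

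Of the 7 genes with more than 1 tested probe set, 4 were fibrillar, and both of their probe sets rose at 72 h. The second probe sets gave 2.32 ± 0.38 for Col1a1, 2.26 ± 0.27 for Col1a2, 2.71 ± 0.31 for Col5a1 and 2.17 ± 0.30 for Col5a2. At 24 h they differed in their calls. The second probe sets of Col1a1 (1.20 ± 0.40, limma adjusted p = 0.0435) and Col5a1 (1.09 ± 0.32, 0.0229) passed where the brightest did not, and that of Col5a2 (0.64 ± 0.31, 0.193) did not pass where the brightest did. The second Col15a1 probe set fell at 3 h (-0.64 ± 0.16, limma adjusted p = 0.00845) and did not pass at 24 h (-0.29 ± 0.16). The second tested Col12a1 probe set, dimmer than the first, did not pass at 24 h (0.31 ± 0.33, limma adjusted p = 0.62) or at 72 h (0.79 ± 0.32, 0.0844).

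**Figure D4:**
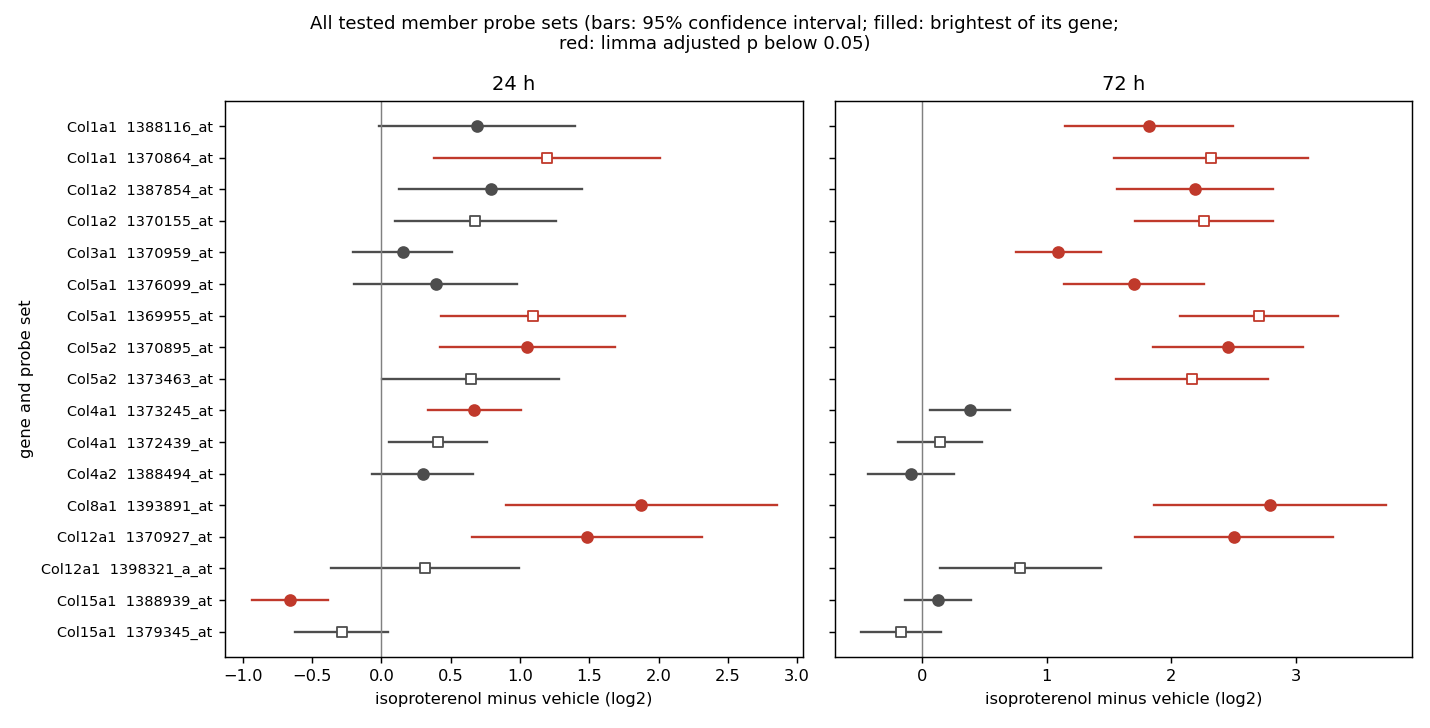
Isoproterenol minus vehicle on the log2 scale at 24 h and at 72 h for all 17 tested probe sets, with 95% confidence intervals as bars, filled circles for the brightest probe set of a gene and red where limma's adjusted p was below 0.05. At 72 h all 9 probe sets of the fibrillar chains were red, from 1.09 for Col3a1 to 2.71 for the second Col5a1 probe set, and none of the 3 type IV probe sets was.

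Windows of 300 bases around RefSeq start sites (GRCr8) were at hand for 7 of the 10 genes. The windows of Col1a2 and Col5a2 are shown as examples of fibrillar chains that rose at 72 h; by their brightest probe sets these 2 changed most, while by the second probe sets Col5a1 and Col1a1 did. Capitals mark matches, on either strand, to any of 6 short motifs searched for in every window: the GC box and CCAAT box named above, and the TATA box, AP-1 site, CRE half-site and Smad-type letters spelled out below. The Col1a2 window lies on the plus strand at chr4:33518307-33518606 and the Col5a2 window on the minus strand at chr9:55090102-55090401.
Col1a2: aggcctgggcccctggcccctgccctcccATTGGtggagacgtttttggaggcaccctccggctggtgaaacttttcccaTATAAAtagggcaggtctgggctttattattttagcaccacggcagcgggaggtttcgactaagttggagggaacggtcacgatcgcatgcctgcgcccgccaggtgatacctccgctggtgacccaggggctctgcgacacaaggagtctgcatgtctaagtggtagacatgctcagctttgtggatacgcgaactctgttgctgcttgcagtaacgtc
Col5a2: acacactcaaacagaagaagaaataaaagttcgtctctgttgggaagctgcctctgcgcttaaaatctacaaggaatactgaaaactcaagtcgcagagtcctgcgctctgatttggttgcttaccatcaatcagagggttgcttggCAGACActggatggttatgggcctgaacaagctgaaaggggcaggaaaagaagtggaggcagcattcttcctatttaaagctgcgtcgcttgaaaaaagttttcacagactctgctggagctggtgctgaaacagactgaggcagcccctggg
The Col1a2 window held 1 match to CCAAT and 1 to TATAAA, the letters of the TATA box, which 14.2% of all windows held. The Col5a2 window held 1 match to CAGACA, letters found in Smad-bound elements, which 21.1% of all windows held. The letters of the AP-1 site, TGACTCA (4.63% of all windows), and of the CRE half-site, TGACG (21.2%), were in 0 of the 7 windows. The GC box was in 4, the CCAAT box in 3, the Smad-type letters in 3 and the TATA box in 1 of the 7. The GC box and CCAAT counts include both the Col4a1 and the Col4a2 window, which hold the same sites in their shared stretch. In the RefSeq gene order Col3a1 and Col5a2 are neighbours on chromosome 9, and their rises at 72 h were 1.09 ± 0.17 and 2.46 ± 0.30.

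Collagen chains are hydroxylated, folded by chaperones, trimmed and cross-linked by other gene products. Of 22 tested genes for these steps, 20 were higher and 0 lower at 72 h, beside 9.37% and 8.46% of all probe sets, with a median change of 1.14. Lox and Loxl1, which cross-link collagen and elastin, rose by 3.11 ± 0.46 and 2.99 ± 0.40 (limma adjusted p = 2.18e-05 and 8.58e-06). Pcolce, which speeds the trimming of fibrillar procollagen, rose by 2.42 ± 0.35, and the prolyl hydroxylase subunit P4ha3 by 1.99 ± 0.42. The 2 that did not pass were Crtap (-0.12 ± 0.31) and Mia3 (0.40 ± 0.19). The counts were also 20 and 0 without replicate 1. At 24 h, 7 were higher and 0 lower, beside 7.34% and 5.71% of all probe sets, and without isoproterenol replicate 3 the counts were 8 and 0. The largest of these was the lysyl hydroxylase Plod2, at 1.34 ± 0.36 (limma adjusted p = 0.0111), a call that ended on leaving out vehicle replicate 3 (1.11, limma adjusted p = 0.0873). At 3 h, 0 were higher and 1 lower, Loxl3 (-1.18 ± 0.27, limma adjusted p = 0.00328), beside 6.1% and 5.28% of all probe sets. The count lower was thus near the share of all probe sets.

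Among 25 other collagen chains tested, 11 were higher and 1 lower at 72 h, beside 9.37% and 8.46% of all probe sets, with a median change of 0.52. Col8a2, the partner of Col8a1 in type VIII collagen, rose by 2.83 ± 0.38. Col16a1 (1.92 ± 0.27) and Col14a1 (1.83 ± 0.26), which like Col12a1 are fibril-associated, and Col6a3 (1.68 ± 0.24), a microfibril chain, rose as well, Col6a3 not by its dimmest probe set (0.43, limma adjusted p = 0.247). Col24a1 was the 1 that was lower (-0.65 ± 0.20, limma adjusted p = 0.0192), and it was named after its value was seen. With arrays centred on their medians 10 were higher and 0 lower. At 24 h, 2 were higher and 1 lower, shares close to the 7.34% and 5.71% of all probe sets, and without isoproterenol replicate 3 the counts were 4 and 4. The largest at 24 h were Col18a1 (1.20 ± 0.31), the other multiplexin beside Col15a1, and Col4a5 (-1.04 ± 0.25), a type IV chain of another isoform. The Col18a1 call ended without vehicle replicate 1 (1.03, limma adjusted p = 0.0571). The Col4a5 call ended without vehicle replicate 2 (-0.74, limma adjusted p = 0.0809).

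Partners of type IV collagen in basement membranes include laminins, nidogens and perlecan. Of 17 tested, 6 were higher and 0 lower at 72 h, beside 9.37% and 8.46% of all probe sets, with a median change of 0.31, and the counts were 7 and 0 without replicate 1. Pxdn, a peroxidase that cross-links type IV collagen, rose by 1.05 ± 0.22 (limma adjusted p = 0.00109), and the laminin chain Lama4 by 1.03 ± 0.21 (0.00088). By their dimmest probe sets neither passed (Pxdn 0.60, limma adjusted p = 0.13, and Lama4 0.19, 0.685). Lama5 (0.82) and Nid1 (0.77) were also called higher at 72 h, but their dimmest probe sets had the opposite sign. That of Lama5 gave -0.47 (limma adjusted p = 0.245), and that of Nid1 gave -0.87 (0.0445), which passed as lower. At 24 h, 0 were higher and 3 lower, beside 7.34% and 5.71% of all probe sets: Lama2 (-0.71 ± 0.16), Lamb2 (-0.60 ± 0.16) and Agrn (-0.56 ± 0.16). The Lamb2 call ended without isoproterenol replicate 2 (-0.49, limma adjusted p = 0.0584) or vehicle replicate 3 (-0.47, limma adjusted p = 0.0927). The Agrn call ended without isoproterenol replicate 2 (-0.49, limma adjusted p = 0.0725), vehicle replicate 1 (-0.54, limma adjusted p = 0.0531) or vehicle replicate 2 (-0.52, limma adjusted p = 0.0668). Without isoproterenol replicate 3 the counts were 1 and 4, and without normalization 2 and 0. Of 15 fibril-associated matrix genes, 12 were higher and 0 lower at 72 h, beside the same shares of all probe sets, with a median change of 2.10. Postn and Tnc, matrix proteins of healing tissue, rose by 5.23 ± 0.54 and 3.80 ± 0.64, and fibronectin (Fn1) by 2.93 ± 0.34. Timp1, an inhibitor of matrix proteases, passed at 1 h (2.58 ± 0.51) and at 3 h (4.26 ± 0.54), when no fibrillar chain did.

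Cell type markers also differed between the groups, and their part in the collagen results was not tested. At 72 h, when 9.37% of all probe sets were higher and 8.46% lower, 6 of 10 fibroblast markers were higher and 0 lower, and the summed level was 17760 to 23487 after isoproterenol against 11764 to 17029 in vehicle. Thy1 (3.04 ± 0.45) and Mfap5 (1.85 ± 0.33) rose, while Dcn (0.36 ± 0.13, limma adjusted p = 0.0636) and Tcf21 (0.15, 0.693) did not pass. The mean log2 level over the vehicle arrays of all times was 12.19 for Gsn and 5.67 for Dpep1. Against that mean over all times, both were lower after isoproterenol at 72 h, at 11.81 and 5.51. Against the vehicle arrays of 72 h, with all arrays kept, neither was called lower. Without replicate 1, 7 fibroblast markers were called higher and 1 lower. All 5 myofibroblast markers were higher at 72 h. All 8 macrophage markers were higher, with sums of 2214 in replicate 1, 6960 to 8495 in the other isoproterenol arrays and 1020 to 1202 in vehicle. Of 7 endothelial markers 0 were higher and 1 lower at 72 h, and of 6 mural markers 1 was higher and 0 lower, counts near the shares of all probe sets. Their sums overlapped between the groups, at 3489 to 5828 against 4079 to 5803 for endothelial and 2535 to 3727 against 3161 to 4067 for mural markers. The endothelial overlap came from replicate 1 alone (5828), as the other isoproterenol arrays (3489 to 4019) lay wholly below vehicle. Mural sums still overlapped in the other isoproterenol arrays (2535 to 3229). Without replicate 1, 2 endothelial markers were called lower, and of the mural markers 1 was higher and 1 lower. Of 8 cardiomyocyte markers none passed at 72 h, 4 were lower with arrays centred on their medians and 6 with trimmed mean scaling. The cardiomyocyte sum was 69592 in replicate 1, 57175 to 66877 in the other isoproterenol arrays and 68645 to 69842 in vehicle. Without replicate 1, 1 cardiomyocyte marker was called lower.

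At 24 h, beside 7.34% of all probe sets higher and 5.71% lower, 7 of 8 macrophage markers were higher, with sums of 2898 to 8493 against 1146 to 1848. Of the fibroblast markers 0 were higher and 2 lower, and of the myofibroblast markers 2 were higher, with sums of 1482 to 3141 against 402 to 542. Endothelial sums lay wholly below vehicle at 24 h (3555 to 4385 against 4867 to 5586), with 1 of 7 markers called lower. Cardiomyocyte sums also lay wholly below vehicle (57474 to 66196 against 69922 to 71039), with 1 of 8 called lower. The 3' minus 5' difference of the beta-actin control probe sets, which reflects how intact the RNA was, came to 1.06 ± 0.21 (SD, n = 4) after isoproterenol and 1.69 ± 0.23 (SD, n = 3) in vehicle at 24 h. At 72 h it was 1.35 ± 0.22 (SD, n = 5) and 1.35 ± 0.56 (SD, n = 3). At 3 h the order was the opposite of that at 24 h, with 1.91 ± 0.13 (SD, n = 4) after isoproterenol and 1.28 ± 0.60 (SD, n = 3) in vehicle, and at 1 h the means were 1.85 ± 0.18 (SD, n = 5) and 1.56 ± 0.03 (SD, n = 3). The same difference for the GAPDH control probe sets varied less, with means between 0.35 and 0.43 in the 8 groups. At 24 h its order was the opposite of that of beta-actin, with 0.42 ± 0.07 (SD, n = 4) after isoproterenol and 0.35 ± 0.03 (SD, n = 3) in vehicle. The 2 controls thus differed on RNA quality, and its part in the results at 1, 3 and 24 h was not tested.

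Over the 30 arrays, the 5 genes outside the collagens whose values followed the mean of the fibrillar chains most closely were Pcolce (Pearson r = 0.984), Rcn3 (0.973), Fstl1 (0.972), Olfml3 (0.966) and Tgfb3 (0.965). For the mean of Col4a1 and Col4a2 they were Acta2 (0.830), Rab8a (0.823), Myh9 (0.817), Myo9b (0.815) and Jpt1 (0.811). These 12416 ranked genes were compared as a description, and the arrays fall into 8 groups that share treatment and time.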

How the data were processed

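RNA from 30 rat heart samples labelled as biological replicates was hybridised to Affymetrix RAT230_2 arrays, 1 colour each. The deposited table holds 1 linear intensity per probe set and array; for its summarisation and scaling by the authors, the method was not given in the sources used here. Intensities were quantile normalized and taken as log2(intensity + 16). The deposited intensity had to reach 23, the 40th percentile of all values, in at least 3 arrays, and 57 control probe sets were left out, leaving 24292. Symbols came from the platform annotation: 20826 probe sets had 1 gene, 436 several and 9780 none listed here.

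Group means of the 8 treatment and time groups were fitted with limma 3.58.1 in R 4.3.3 (lmFit, eBayes with an intensity trend, 22 residual degrees of freedom). P-values were adjusted by Benjamini-Hochberg over all tested probe sets within a contrast. The members, lists and tests were chosen with earlier results of these data known. All members are named; of each list at most 4 genes are named at a time, those with the largest change among the called ones, apart from genes given as not called. Marker lists not described in the results moved as follows at 72 h: of 5 atrial markers 1 was higher, of 4 mesothelial markers 1 was lower, and of 5 skeletal muscle markers 1 was higher and 1 lower. Of all probe sets 9.37% were higher and 8.46% lower at that time.

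Same-numbered arrays were not paired: the correlation of their deviations lay between -0.074 and 0.125 over the 12 pairs. Data simulated for the 72 h comparison gave back 68% of 100 changes of 1 and 99% of 100 changes of 2 on the log2 scale, with 9 false among 176 calls. The simulated arrays had independent noise, no array that stood apart and no other changes. In the real comparison 2277 probe sets were called higher and 2056 lower, so its recovery and false calls can differ from these figures. Alternatives covered normalization, pseudocount, filter, probe set choice, array weights, the replicate block and each array left out.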

Additional observations from a re-analysis of the deposited data

Results flagged for a closer look

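In 7 of the 44 groups of values tested, 1 array stood far from the others of its group. Chance gives about 1 in 20 where groups are independent. These 44 share arrays and hold genes that move together, so the 7 cannot be set against that rate. Vehicle groups, with 3 arrays each, were too small for this check. In 4 of the 7 groups the array was isoproterenol replicate 1 at 72 h, which was low for Col1a1 (11.01), Col1a2 (11.17), Col3a1 (12.82) and Col5a2 (10.53). Col8a1 was high in isoproterenol replicate 1 at 1 h (6.93) and low in isoproterenol replicate 3 at 24 h (7.65). The fibrillar minus type IV difference was low in isoproterenol replicate 2 at 24 h (-0.26).

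The isoproterenol effect itself differed between times, by limma's test of the difference, in 10 comparisons. From 3 h to 24 h it increased for Col1a1 by 1.70. From 24 h to 72 h it increased for Col3a1 by 0.94 and for Col15a1 by 0.79. From 3 h to 72 h it increased by 2.83 for Col1a1, 2.73 for Col1a2, 1.40 for Col3a1, 2.19 for Col5a1, 2.11 for Col5a2, 2.57 for Col8a1 and 0.82 for Col15a1.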

How the results depend on the processing

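At 72 h the rises of the 5 fibrillar chains and Col8a1 passed under all 23 alternatives, and Col12a1 under 22, failing with its dimmest probe set (0.79). The count of members higher at 24 h was 2 with the mean over probe sets, and from 1 to 4 on leaving out 1 array (1 without vehicle replicate 3, 2 without vehicle replicate 1). The count lower at 1 h was 1 when only the arrays compared were fitted. The count lower at 3 h was 2 with array weights or a stricter filter, 0 with median centring or no normalization, and 1 to 2 on leaving out 1 array. The count lower at 24 h was 0 with median centring, the dimmest probe sets or no normalization. The fibrillar minus type IV difference at 24 h was 0.40 with the dimmest probe sets. With the replicate block the counts higher were 4 at 24 h and 7 at 72 h, and the Col1a1 change from 3 h to 24 h (1.70) had a limma adjusted p of 0.0526. Signs turned for context genes: without normalization Abcc9 (0.0092) and Agrn (0.071) at 24 h; with the dimmest probe sets Kdr at 24 h (0.092), Lama5 at 1 h (-0.099), 3 h (-0.51) and 72 h (-0.47), Myh1 at 3 h (0.44), Nid1 (-0.87) and Pdgfrb (-0.32) at 72 h; with the mean over probe sets Nid1 at 72 h (-0.051). The cause was not tested. Without normalization the median of all probe sets moved to 0.47 at 24 h and 0.36 at 72 h, and with trimmed scaling to -0.13 at 3 h. Of the 72 h calls 52.6% were higher with quantile normalization and 76.8% with median centring. List counts without isoproterenol replicate 1 of 72 h or replicate 3 of 24 h and under other scalings were chosen after seeing the data. The number of arrays, 3 to 5 a group, limits the precision.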
